A study of Mus musculus with 2 samples.

Results

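The cells described here are macrophages of the mouse testis that carried transcripts of antigen presentation (H2-Aa and Cd74) or of the mannose receptor Mrc1 in at least the number found for Fcrls, Ccl3 and Ccl4. They were 103 of the 9594 cells in the deposited tables, 42 from a library of mice aged 2 months (young) and 61 from a library of mice aged 24 months (aged). Both libraries came from testis tissue freed of its tunica, minced, digested briefly with accutase, strained and captured on the BD Rhapsody microwell system. The labels name the cells stroma cells and give neither the strain nor the number of mice behind a library. With 1 library per age no difference between the ages can be tested, and every interval below is an exact 95% interval that covers counting error only. Whether a count stands for 1 molecule or 1 read is not given in the sources used here, and if it is a read the intervals are too narrow.

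Macrophages of the testis live among the Leydig cells of the interstitium and along the outer wall of the seminiferous tubules. The interstitial cells are known for Csf1r, the receptor that keeps macrophages alive, and for scavenger receptors such as Mrc1 with little MHC class II, whereas the peritubular cells are known for MHC class II, the molecules that show peptides to helper T cells. Both are held to clear dying cells and to damp immune reactions near the germ cells.

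A cell was a member when its total reached 500 counts from 200 or more genes with a mitochondrial share of up to 25%, when Cyp17a1, Ptgds, Hsd3b6 and Star (Leydig cell genes) made up under 1% of its counts, when C1qa, C1qb, C1qc, Csf1r and Adgre1 made up 0.5% or more, and when H2-Aa, Cd74 and Mrc1 together reached at least the sum of Fcrls, Ccl3 and Ccl4. The levels of these 15 genes chose the cells and are no finding. The lowest share of the macrophage genes in a member was 0.585% (young) and 0.703% (aged). Just below the threshold the highest shares were 0.0318% and 0.487%, and 5 aged cells lay between 0.25% and 0.5%. On the last criterion 5 young and 10 aged members had an excess of 0 to 2 counts, and 2 young and 4 aged macrophages missed it by 1 or 2 counts. A further 21 young and 16 aged cells failed on the Leydig genes alone.

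Members made up 1.52% of the 2770 kept young cells (interval 1.09% to 2.04%) and 1.05% of the 5812 kept aged cells (0.804% to 1.35%). Among all macrophages that passed the other criteria they were 42 of 120 in the young library (35.0%, 26.5% to 44.2%) and 61 of 71 in the aged one (85.9%, 75.6% to 93.0%). These shares follow from the genes of the rule and are a description. The remainder, 78 young and 10 aged, had more Fcrls, Ccl3 and Ccl4 counts than H2-Aa, Cd74 and Mrc1 counts, though in the aged cells the first sum was only 2 to 29 counts. The libraries differed in depth. Young members had a median of 4578.5 counts (3309 to 11167) and 2136.5 genes, aged members 1869 counts (563 to 3586) and 1080 genes, and 58 of the 61 aged members had fewer counts than the lowest total in the young table, 3215. Median mitochondrial shares were 3.46% and 3.96%. The tables shared 35 cell barcodes, 1 of which belonged to a member, and no barcode was a member in both.

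The macrophage label held against genes that the rule did not use. Lyz2, the lysozyme of myeloid cells, stood at 12495 counts per 1000000 counts (CPM) among young members and at 13342 CPM among aged ones. In the other kept cells it stood at 34.0 and 25.2 CPM. Those other cells, here and below, leave out the 78 young and 10 aged macrophages that failed only the last criterion. Cd68, a lysosomal membrane protein of macrophages, stood at 2153 and 2248 CPM, and Tyrobp, the signalling adaptor of many myeloid receptors, at 1309 and 1285 CPM. The whole lineage list of 16 genes summed to 28412 and 29488 CPM in the members and to 414 and 265 CPM in the other cells. Lists for other blood cells had few counts outside single genes. The 9 T and NK cell genes summed to 29 and 45 counts, all but 1 of them from Cd4, and 7 were at 0 in both libraries, among them Cd3e, Trac and Nkg7. The 6 B and plasma cell genes summed to 78 and 24 counts, or 381 and 208 CPM beside 5.61 and 5.97 CPM in the other cells. Of these 74 and 21 were Ighm, the heavy chain of IgM, spread over 32 young and 15 aged members, and the 78 young macrophages outside the members held Ighm as well, at 755 CPM. Ms4a1 and Cd79a were at 0 in the members. The 12 dendritic cell genes summed to 12 and 27 counts. Cd209d, a lectin of the DC-SIGN family, made up 22 of the aged counts, in 7 members, and had none in the young; Flt3, Zbtb46, Xcr1, Clec9a and Ccr7 were at 0 in both. The 12 monocyte genes summed to 118 and 87 counts, or 576 and 755 CPM beside 43.0 and 56.0 CPM in the other cells. S100a4 (37 and 34 counts), S100a6 (68 and 40) and Lyz1 (13 and 12) made up all but 1 of these, and Ly6c2, Plac8 and Vcan were at 0. A gene at 0 can stand at up to 14.6 CPM in the sum of the young and 26.0 CPM in that of the aged members. Mki67, a marker of cycling cells, had 0 and 3 counts.

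Transcripts of other testis cells were present, unevenly. Prm1, Prm2, Tnp1 and Tnp2, which package DNA in spermatids, summed to 4116 CPM (young) and 651 CPM (aged) in the members, beside 7324 and 4404 CPM in the other cells. In 1 young member 8.93% of the counts came from 8 germ cell genes, the next highest being 0.749%. Without the members of 1% or more the spermatid genes summed to 1364 and 518 CPM. Another source was uneven too: 28 of 35 counts of Dcn, a proteoglycan of fibroblasts, and 46 of 58 counts of the actin-severing Gsn came from single young cells. A doublet caller, Scrublet, marked 1 member in each library.

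Genes of secreted and lysosomal products had high counts in the members of both libraries. Selenop, a selenium carrier released by resident macrophages, stood at 14873 and 14019 CPM in the young and aged members, and Apoe, which carries lipid out of the cell, at 13481 and 14696 CPM. The cathepsin Ctsb stood at 5674 and 6562 CPM and the saposin precursor Psap at 4492 and 4002 CPM. Of 19 lysosomal genes none was 2-fold apart between the libraries, with a median log2 ratio of 0.09. Of 15 resident and scavenger receptor genes measured Clec10a was 2-fold higher and Cd36 2-fold lower in the aged members, with a median of -0.17. Among the others were the folate receptor Folr2 at 1440.4 and 1424 CPM, the clotting factor subunit F13a1 at 2607 and 2318 CPM, the carbonyl reductase Cbr2 at 3374 and 2891 CPM and the chemokine Pf4 at 1445 and 1363 CPM. No length correction was applied, so these levels compare libraries and not genes.

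The members differed widely among themselves in class II and Mrc1 counts. Cells whose H2-Aa and Cd74 counts exceeded their Mrc1 counts are called class II-leaning and the reverse Mrc1-leaning. This divides a range and not 2 types, as 3 young and 10 aged cells leaned by an excess of only 1 or 2 counts. Class II-leaning cells were 15 of 42 young and 44 of 61 aged members, and 2 aged members had equal counts. The 3 genes also chose the members, so these numbers describe the division and are no finding on age. Mrc1 was not missing from the class II side: all 15 young and 39 of the 44 aged class II-leaning cells had a Mrc1 count. The Mrc1 side often lacked the other pair, since 16 of 27 young and 10 of 15 aged Mrc1-leaning cells had neither H2-Aa nor Cd74.

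**Figure D1:**
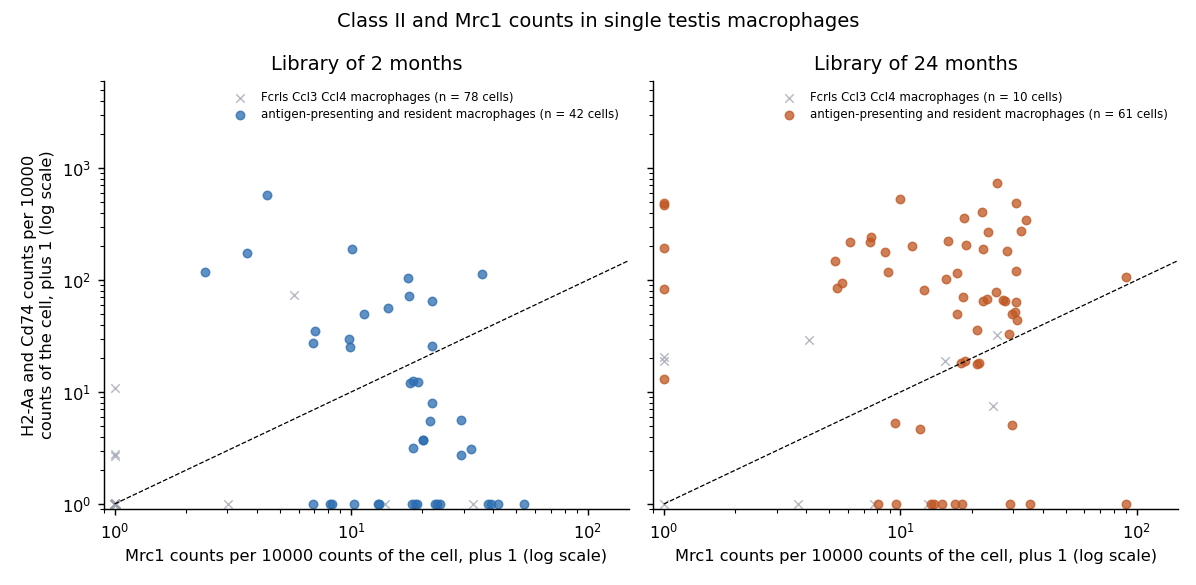
Each point is 1 macrophage, with its Mrc1 counts (horizontal) and its H2-Aa and Cd74 counts (vertical) per 10000 counts, plus 1, on log scales, for the library of 2 months (left, 42 members) and of 24 months (right, 61 members); crosses are the Fcrls, Ccl3 and Ccl4 macrophages and the dashed line marks equal counts. In the young panel 15 members lie above the line and in the aged panel 44.

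Of 5 class II presentation genes measured on both sides that the division did not use, 3 were 2-fold higher on the class II side in both libraries and none on the Mrc1 side. H2-Ab1, the beta chain that pairs with H2-Aa, had 281 counts in the 15 class II-leaning and 8 in the 27 Mrc1-leaning young cells, or 3829 against 60.9 CPM. In the aged library it had 383 counts in 44 cells against 8 in 15 cells, or 5068 against 214 CPM. H2-Eb1, the beta chain of the I-E molecule, had 238 against 3 young counts and 354 against 2 aged counts. H2-DMa, part of the DM complex that loads peptide onto class II, was 4.33-fold and 2.19-fold higher on the class II side. H2-DMb1, its partner, was 4.70-fold higher in the young and 1.65-fold in the aged library, and Ctss turned, at 3638 against 2298 CPM in the young and 2871 against 3565 CPM in the aged. The promoters of class II genes carry a shared module whose Y box reads GATTGG or its reverse complement. The 3 stretches below, each the 150 bases before a gene's start, show it for H2-Aa, which divided the cells, for H2-Eb1, which followed in both libraries, and for H2-DMb1. They are from RefSeq on GRCm38.p6, written 5′ to 3′ on the gene's strand, with the match in capitals.
H2-Aa, chr17:34287824-34287973, minus strand: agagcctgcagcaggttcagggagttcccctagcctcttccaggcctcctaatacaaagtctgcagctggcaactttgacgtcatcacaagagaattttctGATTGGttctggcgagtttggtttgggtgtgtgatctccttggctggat
H2-Eb1, chr17:34305717-34305866, plus strand: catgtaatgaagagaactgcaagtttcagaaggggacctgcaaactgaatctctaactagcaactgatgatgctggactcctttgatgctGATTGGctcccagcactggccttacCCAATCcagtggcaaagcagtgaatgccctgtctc
H2-DMb1, chr17:34153041-34153190, plus strand: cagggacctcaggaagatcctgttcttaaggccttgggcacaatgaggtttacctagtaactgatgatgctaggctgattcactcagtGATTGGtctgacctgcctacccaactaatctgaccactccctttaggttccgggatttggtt

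The match began 49 bases before the start of H2-Aa, 60 before that of H2-Eb1 and 62 before that of H2-DMb1, and H2-Eb1 held another on the other strand. Of 32851 promoter windows of that length 3595 (10.9%) held these letters on either strand. Neither H2-DMa start nor the Mrc1 start did. H2-Ab1 had no promoter in the set used, so it was not checked. A match describes the letters and is no evidence of binding.

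Few other genes followed the division. A gene counted as measured here with 20 or more counts in the members of each library. Of 882 such genes 14 (1.59%) were 2-fold or more higher on the class II side in both libraries and 6 (0.68%) on the Mrc1 side. The rule genes were left out of these counts. The class II side held Irf8, a transcription factor of mononuclear phagocytes, at 491 against 98.9 CPM in the young and 238 against 53.6 CPM in the aged library. For Irf8 1 young cell held 17 of 36 counts, and without it the young difference was 2.81-fold. The class II side also held Ccl12, a ligand of the monocyte receptor Ccr2, at 954 against 107 and 675 against 241 CPM. Ly6a, an interferon-induced surface protein, stood at 845 against 114 and 476 against 53.6 CPM. The young values of Ccl12 and Ly6a rested on few cells. Ccl12 had counts in 4 class II-leaning and 4 Mrc1-leaning young cells. On the class II side 1 cell held 44 counts, and without it the young difference was 3.57-fold (380 against 107 CPM). For Ly6a 1 young cell held 53 counts, and without it the young difference was 1.17-fold. In the aged library the Mrc1 side held only 2 counts of Irf8 and 2 of Ly6a. The complement receptor C5ar1 was 2.57-fold and 3.75-fold higher, the adhesion molecule Icam1 3.58-fold and 2.28-fold, and Cd4, which mouse macrophages can carry, 3.98-fold and 2.16-fold. Psme1, Skil, Pde4b, Coro1a and Pim1 completed the set. The young differences of C5ar1, Skil and Pde4b were 1.87-fold, 1.74-fold and 1.44-fold without the 1 cell of most counts.

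On the Mrc1 side stood Lcn2, an iron-siderophore binding protein, at 266 against 81.8 CPM in the young and 375 against 79.4 CPM in the aged library, where all 14 counts of the Mrc1 side were in 1 cell. Anxa1, an annexin that damps inflammation, stood at 205 against 81.8 and 429 against 106 CPM, and the cathepsin Ctsl at 373 against 177 and 348 against 172 CPM. Ergic3, Wbp2 and Usf2 were the others. P2ry12, the ADP receptor known from microglia, missed the fold in the aged library at 1.88-fold after 2.88-fold in the young. Of 14 resident and scavenger receptor genes measured on both sides none was 2-fold apart the same way, and their median log2 difference was -0.20 in each library. Folr2 stood at 1553 against 1377 CPM in the young and 1403 against 1528 CPM in the aged library.

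**Figure D2:**
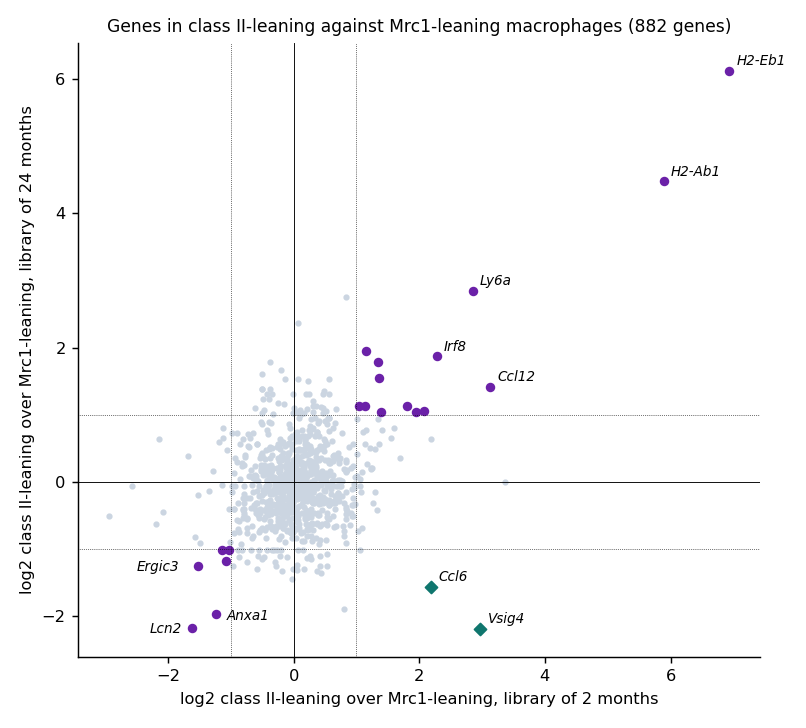
Each point is 1 of the 882 genes, with its log2 level in class II-leaning over Mrc1-leaning macrophages in the library of 2 months (horizontal) and of 24 months (vertical); dotted lines mark 2-fold, purple points the 20 genes past it the same way in both, and green diamonds 2 genes that lay past it in opposite directions. H2-Eb1 and H2-Ab1 lie far from the rest in the upper right corner.

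Between the ages, most chemokines and the stress genes Gdf15 and Cdkn1a stood higher in the aged members, and Lpl, Cx3cr1 and Gbp2 stood lower. Cd36 stood lower as well, but under 2-fold once each cell was thinned to 1000 counts (log2 -0.40). H2-Ab1 and H2-Eb1 stood higher too, but they followed H2-Aa and Cd74, which chose the members, so their ratios are a description. A gene counted as measured with 20 or more counts in both libraries together, so a gene low in both could not enter. Of 2886 such genes 179 (6.2%) were 2-fold or more higher in the aged members and 262 (9.08%) were 2-fold or more lower, with a median log2 ratio of -0.09. With each cell thinned to 1000 counts, which left 42 young and 52 aged cells, the counts were 78 and 51 of 732 genes. Only size was asked of these genes and no test was possible.

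H2-Ab1 stood at 1411 CPM among young and 3420.1 CPM among aged members, a ratio of 2.42 (2.08 to 2.83), and H2-Eb1 at 1177 and 3099 CPM, a ratio of 2.63 (2.23 to 3.11). The intervals did not overlap, but 1 young cell of 5880 counts held 155 of the 289 H2-Ab1 counts and 119 of the 241 H2-Eb1 counts of that library. Without it the young levels were 674 and 613 CPM. With free transcripts taken away the log2 ratio of H2-Ab1 was 0.96, just under 2-fold. That step also took the median of the macrophage lineage list from 0.02 to -0.29. Among the 3 aged members with at least the lowest young total the order turned, to log2 ratios of -1.19 for H2-Ab1 and -0.93 for H2-Eb1. Both genes had 6 counts there, and the cells of 3545 and 3586 counts among these 3 had no H2-Aa or Cd74 count. In the young cell of 5880 counts Flt3 and Ccr7 were at 0 and Lyz2 had 130 counts. Of the 6 class II presentation genes measured these 2 passed 2-fold and none was 2-fold lower, with a list median of 0.70. H2-DMa (200.2 and 329.9 CPM), H2-DMb1 (142 and 226 CPM) and Ctss, the protease that trims the invariant chain (2778 and 3099 CPM), were closer. The ratio was smaller within the class II-leaning cells alone, where H2-Ab1 stood at 3829 and 5068 CPM, a ratio of 1.32 (1.13 to 1.55). After thinning, 31.0% of the young and 71.2% of the aged members held an H2-Ab1 count, as did 1.59% and 2.77% of the germ cells of the same libraries, whose median totals were 18534.5 and 2998 counts; unthinned the members' shares were 47.6% and 73.8% and those of the germ cells 31.3% and 12.8%.

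Chemokines were the list with the most members apart. Of 12 measured, 8 were 2-fold or more higher in the aged members and 1 was lower, with a median log2 ratio of 1.29. Ccl2, which draws monocytes through Ccr2, stood at 879 and 2882 CPM, a ratio of 3.28 (2.73 to 3.95). Its neighbours Ccl7 and Ccl8, which act on overlapping receptors, stood at 942 and 2943 CPM and at 3003 and 7700 CPM. These were spread over many cells: Ccl2 had counts in 28 of 42 young and 49 of 61 aged members, and Ccl8 in 37 and 55. Ccl2 was higher on both sides of the class II division, 3.13-fold (2.39 to 4.13) in class II-leaning and 2.58-fold (1.90 to 3.48) in Mrc1-leaning cells. Ccl8 differed 1.42-fold on the class II side and 4.75-fold on the Mrc1 side. Ccl6, Ccl9, Ccl24 and Cxcl1 were also past 2-fold, at 18 to 47 counts in a library. Among the 3 deepest aged cells Ccl9, Ccl24 and Cxcl1 lay below the young level (log2 -0.92, -1.32 and -1.44).

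Cxcl2, a neutrophil-attracting chemokine of activated macrophages, had 8 counts in 5 young members and 163 counts in 31 aged members. That was 39.1 against 1415 CPM, a ratio of 36.2 (17.95 to 85.3). After thinning, 48.1% of the aged and none of the 42 young members held a count, which allows up to 7.14%; the unthinned shares were 50.8% and 11.9%. In germ cells it was found in 0.358% of 839 aged and 0 of 252 young cells, which allows up to 1.19%. Cxcl9, the T cell chemokine made under interferon gamma, was the one lower, at 1133 and 52.1 CPM. All 232 young counts came from 4 class II-leaning cells, the highest with 132 and 74 counts, and all 6 aged counts from 1 cell.

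Interferon targets beside Cxcl9 were split. Of 10 on the list that were measured, 3 were 2-fold lower in the aged members and 1 higher, with a median of -0.40. Gbp2, a guanylate-binding protein, stood at 591 and 104 CPM, but 61 of its 121 young counts came from 1 cell. Among Mrc1-leaning cells alone its log2 ratio was -0.72, under 2-fold. Iigp1, an immunity-related GTPase, stood at 312 and 130 CPM over 16 young and 7 aged cells. Irgm1, which was not on the list, stood at 200 and 43.4 CPM. Ifi207 went the other way at 249.02 and 720.5 CPM, although its family shares sequence and the assignment of its counts is uncertain.

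Several stress and growth arrest genes stood higher in the aged members. Gdf15, a stress-induced secreted factor, stood at 156 and 1372 CPM, a ratio of 8.78 (5.97 to 13.3), with counts in 10 of 42 and 33 of 61 cells. Cdkn1a, the p53 target that blocks the cell cycle, stood at 181 and 599 CPM and Gadd45b, a stress sensor, at 34.2 and 295 CPM; these were the 2 of 4 measured senescence and p53 genes past 2-fold, and Cdkn2a and Cdkn2b had no count in either library. Hmox1, which breaks down haem, stood at 801 and 2101 CPM. Id2, an inhibitor of DNA binding by helix-loop-helix factors, stood at 181 and 1354 CPM and Plau, the urokinase plasminogen activator, at 112 and 755 CPM. Within each side of the class II division Gdf15, Id2, Plau and Hmox1 stood higher in the aged cells too, Gdf15 by 9.32-fold and 9.93-fold. Immediate early genes, which tissue digestion is known to induce, were mixed. Of 16 measured 9 had a log2 ratio above 0, and the list median was 0.17. Past 2-fold were Nfkbia, which was higher (386 and 1111 CPM), and Ier2, which was lower (629.9 and 286 CPM). Fos (3857 and 3420.1 CPM) and Jun (2925 and 2934 CPM) were close.

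Other genes named for the size of their ratio in the aged direction included the chemokine receptor Cxcr4 (3 and 29 counts, ratio 17.2, 5.33 to 88.2), the lectin Mgl2 (5 and 27 counts), the lysosomal galactosidase Gla (13 and 55 counts), the NF-kB subunit Rel (3 and 17 counts) and the receptor Gpr132 (4 and 17 counts). Ccl4, one of the rule genes, had 1 and 90 counts and is no finding. The cytokine Il10 had 13 counts in 6 young and 33 counts in 14 aged cells, and the inflammasome sensor Nlrp3 9 and 25 counts. In the 3 deepest aged cells Il10 had 0 counts, and its log2 of -0.46 there rests on the added 0.5. Tnf, at 308 and 451 CPM, did not reach 2-fold. Among surface receptors the lectin Clec10a stood at 566 and 1172 CPM, the inhibitory Fc receptor Fcgr2b at 605 and 1354 CPM, the interleukin receptor Il4ra at 186 and 495 CPM and the endotoxin co-receptor Cd14 at 83.0 and 347 CPM. Cd14 too had 0 counts in the 3 deepest aged cells (log2 -0.84 from the added 0.5). Clec10a was under 2-fold in 7 alternatives (log2 0.61 after thinning).

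Lower in the aged members stood Cx3cr1, the fractalkine receptor, at 1011 and 356 CPM, with counts in 33 of 42 young and 25 of 61 aged cells. It was 1.73-fold lower among class II-leaning and 4.89-fold lower among Mrc1-leaning cells. Among the 3 deepest aged cells its log2 ratio was -0.50, under 2-fold. Lpl, the lipase that frees fatty acids, stood at 942 and 234 CPM, a ratio of 0.249 (0.160 to 0.373), and the fatty acid receptor Cd36 at 439 and 199.7 CPM. With a macrophage gene share of 0.25%, adding 5 aged cells, the log2 ratios were -0.79 for Lpl and -0.42 for Cd36, both under 2-fold. Among the 3 deepest aged cells they were -0.85 and -0.40. Cd36 was also under 2-fold after thinning (-0.40), with equal weights for each cell (-0.85) and among class II-leaning cells (-0.54). Lpl and Cd36 were the 2 of 8 lipid genes past 2-fold, while Apoe and the cholesterol exporter Abca1 (718 and 686 CPM) were close. Further genes named for their ratio were the nucleotide receptor P2ry6 (19 and 1 counts), the kinase Fes (24 and 2), Themis2 (21 and 2), Fam43a (22 and 1), Slc45a4 (31 and 3), Iah1 (18 and 2), Selenbp1 (24 and 3), Lrp10 (23 and 3) and Gsn (58 and 3). In the 3 deepest aged cells Lrp10 had 1 count, which gave a log2 of 0.32. All but Gsn had counts in 11 to 21 young cells, but the naming rule asked for 8 or more, and the aged side held only 1 to 3 counts. Spermatid genes stood lower too, 6 of 6, and Leydig genes, 2 of 2. With free transcripts taken away, at the 56.2% of young and 14.8% of aged counts that the spermatid genes gave, the log2 ratios of Lpl and Cx3cr1 were -2.31 and -1.81, beside -1.98 and -1.49 before. The young share was set in large part by the 1 cell rich in germ cell transcripts, without which the 4 spermatid genes stood at 1364 CPM in place of 4116 CPM. Taking free transcripts away also moved genes that were close, Folr2 from a log2 of -0.01 to -0.34 and the lineage list median from 0.02 to -0.29. The larger differences of Lpl and Cx3cr1 are therefore no added evidence on these genes.

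Complement genes pointed both ways. Of 9 measured, 3 were 2-fold higher and 3 lower in the aged members, with a median of 0.50. The receptor C5ar1 stood at 190.4 and 391 CPM, with 1 count in the 3 deepest aged cells (log2 -0.43). Vsig4, a macrophage receptor for C3 fragments, stood at 166 and 608 CPM, although within the class II-leaning cells it was lower in the aged ones (log2 -0.45). C4b stood at 107 and 286 CPM and has a near-identical copy, so its counts are uncertain. C2, a protease of the classical path, had 1 aged count against 25 young counts in 14 cells, Serping1 had 1 against 23 and C3 had 4 against 18, of which 16 came from 1 cell.

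**Figure D3:**
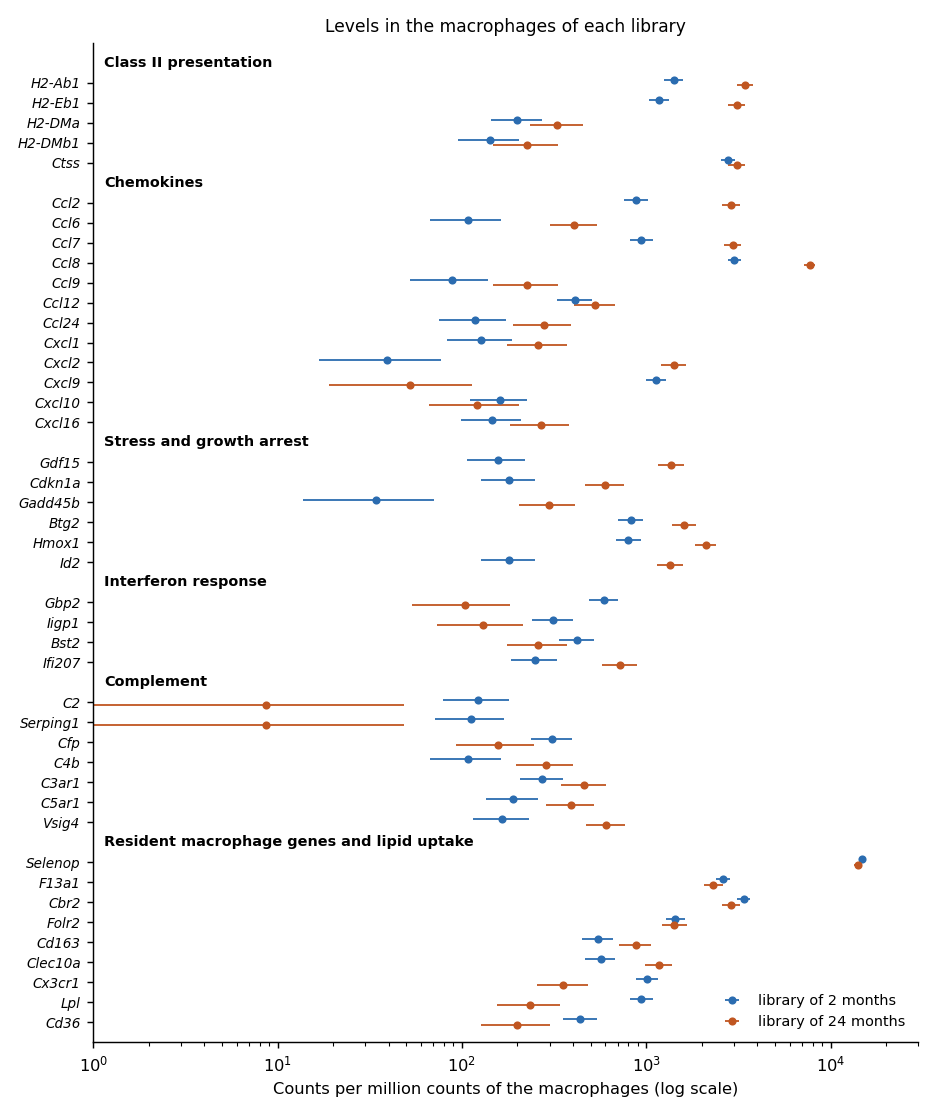
Levels of named genes in the macrophages of the library of 2 months (blue, 42 cells) and of 24 months (orange, 61 cells) in CPM on a log scale, grouped by role; bars are exact 95% Poisson intervals of the summed counts. Ccl2, Ccl7, Ccl8, Cxcl2 and Gdf15 lie further right in orange, and Cxcl9, Gbp2, C2, Lpl and Cx3cr1 further right in blue.

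The most similar cells in the young library were the 78 macrophages with more Fcrls, Ccl3 and Ccl4. The 6 genes of that criterion are no finding, and since the groups were cut from the same counts the values are a description. Of 5068 genes with 20 or more counts in both groups together 828 (16.3%) were 2-fold or more higher in the members and 887 (17.5%) lower. Of 16 resident and scavenger receptor genes 14 were higher in the members and 1 was lower, with a median log2 ratio of 4.502 beside 0.03 over all genes measured. Of 9 genes for the uptake of dying cells 7 were higher and 1 was lower, with a median of 4.56. Cd163, the haemoglobin scavenger receptor, stood at 547 against 9.02 CPM, Folr2 at 1440.4 against 20.3 CPM and F13a1 at 2607 against 45.1 CPM. Axl, which binds dying cells through Gas6, stood at 469 against 2.25 CPM, and Clec10a at 566 against 2.25 CPM, each with 1 count in the Fcrls group. The lipid receptor Trem2 stood at 889 against 36.1 CPM. Cxcl9, Ly6a and Iigp1 had no count in the Fcrls group and were at least 167, 55.6 and 46.2-fold higher in the members against a floor of 3 counts. That floor leaves out the error of the members' own counts, and the exact lower limits of the ratios were 135, 44.1 and 36.5. Without the 1 member of most counts the same floor gave 74.0 for Cxcl9, 17.8 for Ly6a and 37.7 for Iigp1. Timd4, a receptor for dying cells, was at least 24.5-fold higher against it, Ccl24 at least 17.3-fold and C4b at least 15.9-fold. Dnase1l3, an enzyme that cuts free DNA, had 33 counts in only 4 members, 23 of them in 1, and its value of 23.8-fold against the floor was 7.43-fold without that cell. The lectin Clec4n had 149 counts against 2. All 9 interferon genes measured, 6 of 8 complement genes and 5 of 6 class II genes were also higher in the members, H2-Ab1 at 1411 against 47.4 CPM.

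Both groups carried myeloid genes, but of 16 lineage genes measured 7 were 2-fold or more higher in the members and 6 in the Fcrls group. Tyrobp stood at 1309 CPM in the members and 1391 in the Fcrls group, Ctss at 2778 and 2492 CPM and the transcription factor Maf at 1240.2 and 1177 CPM, but Lyz2 at 12495 and 2694 CPM and Cd68 at 2153 and 282 CPM. Other lineage genes were lower in the members: the integrin Itgam at 166 against 634 CPM, the transcription factor Spi1 at 430 against 1039 CPM and the actin-binding Aif1 at 864 against 2124 CPM. Slc13a3, a dicarboxylate transporter, had 3 counts in the members and 1486 in the Fcrls group, and Ndrg1 had 1 and 580. Nrxn2, Sema7a, Arhgap4 and the formyl peptide receptors Fpr1 and Fpr2 had no count in the members, and were at least 28.5, 21.1, 19.9, 10.6 and 12.6-fold lower there against the same floor, with Rasgrf1, Pim2 and Trerf1 at 0 too. Microglial Tmem119 had 32 counts in the Fcrls group and 0 in the members. Spermatid transcripts were also higher in the members, 6 of 6, and without the member rich in them 772 genes were higher and 863 lower.

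In the aged library the same criterion left only 10 macrophages outside the members. For several genes these stood near the aged members. Apoe stood at 14329 CPM in them and 14696 CPM in the aged members, Selenop at 13935 and 14019 CPM and F13a1 at 2244 and 2318 CPM. Slc13a3, Ndrg1, Nrxn2, Sema7a, Arhgap4, Fpr1 and Fpr2 had no count in them or in the aged members. H2-Ab1 stood at 276 CPM in these 10 cells against 3420.1 CPM in the aged members. It followed H2-Aa and Cd74, which helped to place the cells, so this difference is a description and no finding.

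**Figure D4:**
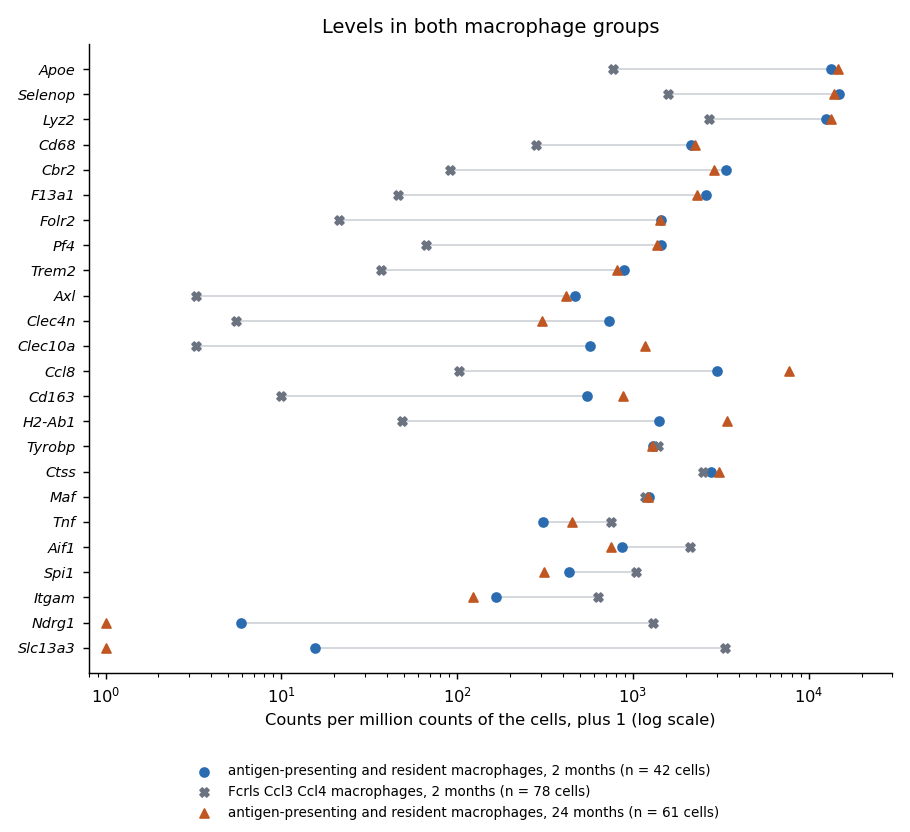
Levels of named genes in CPM, plus 1, on a log scale, in the 42 young members (blue circles), the 78 Fcrls, Ccl3 and Ccl4 macrophages of the same library (grey crosses) and the 61 aged members (orange triangles). From Apoe to H2-Ab1 the grey crosses lie left of both member groups, near Tyrobp, Ctss and Maf all 3 meet, and at Slc13a3 and Ndrg1 the order is reversed.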

How the data were processed

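For each library the authors deposited 1 table of raw whole-number counts, with cells and genes as its sides. The aged table came from the BD Rhapsody pipeline 1.7.1 with STAR 2.5.2b, per its file header. Which pipeline made the young table is not given in the sources used here. A difference in processing between the tables therefore cannot be told apart from age. Cell Ranger 2.11 and the mm10 build stand in the submitters' processing notes instead, and how cells were called is not given in the sources used here. The tables held 40184 (young) and 39087 (aged) gene columns and 53413783 and 66390904 counts. A gene in 1 table only was taken as 0 in the other. Totals were summed over the members of a library (204804 and 115200 counts) and given as CPM, with exact Poisson intervals, exact conditional binomial intervals for ratios and Clopper-Pearson intervals for shares (Python 3.11.15, scipy 1.17.1). Ratios on the log2 scale had 0.5 added to each count. The steps were tested on simulated data.

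With 1 library per age no test across samples was run. Genes named for age were the 12 highest and 12 lowest ratios among measured genes found in 8 or more members of the higher library. Their level there had to be at least 3 times that of its kept cells outside both macrophage groups. For the class II division they were the 10 with the largest smaller ratio of both libraries in each direction. The same rule of 10 served for the Fcrls macrophages of the young library. Gene models and ribosomal and mitochondrial genes were left out. Some genes that these rules or lists name are not reported here. For each list the most abundant genes and those furthest from equality were named besides. Jun, Fos, Mki67, Abca1 and other list genes were named after their values were seen, to show where a list did not differ. The members, the lists and the rules were chosen with earlier results of these data known. Doublets were called with Scrublet (scanpy 1.11.5), and kept. Alternatives included TMM factors (edgeR 4.0.16), thinning, other limits of the rule and removal of free RNA.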

Additional observations from a re-analysis of the deposited data

Results flagged for a closer look

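Ccl6 and Vsig4 stood on opposite sides of the class II division in the 2 libraries. Ccl6, a chemokine of myeloid cells, was higher in class II-leaning young cells (log2 difference 2.18; 16 against 6 counts) and lower in class II-leaning aged cells (-1.57; 19 against 28 counts). Vsig4, a complement receptor of resident macrophages, had a log2 difference of 2.97 in the young (28 against 6 counts) and -2.19 in the aged library (21 against 48 counts). Vsig4 counts came from 8 young and 18 aged cells and Ccl6 counts from 12 and 15 cells. With 1 library per age the difference between the libraries was not tested.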

How the results depend on the processing

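Of 57 listed or named genes 2-fold apart between the ages, 11 changed sign in 11 of 878 alternatives. Requiring the young table's lowest total left 3 aged cells and gave 9 of these: log2 values of -0.43 for C5ar1, -1.32 for Ccl24, -0.92 for Ccl9, -0.84 for Cd14, -1.44 for Cxcl1, -1.19 for H2-Ab1, -0.93 for H2-Eb1, -0.46 for Il10 and 0.32 for Lrp10. In those 3 cells Ccl24, Ccl9, Cd14, Cxcl1 and Il10 had 0 counts, so their values rest on the added 0.5. C5ar1 and Lrp10 had 1 count each there and H2-Ab1 and H2-Eb1 6 each. Tgfbr1 was at -0.10 after thinning and Vsig4 at -0.45 among class II-leaning cells. Changes of sign included, 8 of the 57 came under 2-fold with a macrophage gene share of 0.25%, among them Lpl (-0.79) and Cd36 (-0.42), 5 with equal weights for each cell, 6 with free RNA removed, 5 of 43 after thinning and 20 of 51 with that lowest total. The lowest total also took the ratio of the members' shares, aged over young, from 0.692 (0.460 to 1.05) to 0.0473. The 179 genes higher in the aged members became 351 with it, 356 with a macrophage gene share of 0.25%, 118 in Mrc1-leaning cells alone, 76 with 50 or more counts and 78 after thinning. The 262 lower became 504 with that total, 100 in class II-leaning cells alone, 54 with 50 or more counts and 51 after thinning. The 14 genes of the class II side became 9 when sides had to differ 2 times and 1 with that total, and the 6 of the Mrc1 side became 15 with the 0.25% share, 0 with that total and 3 without equal sums. The alternatives within 1 side of the division, without the young cell of most class II counts and without the 1 cell of most counts of a gene were chosen after seeing the data. Depth limits what the aged members can show, since 58 of 61 had fewer counts than any young cell, and library and age cannot be told apart. No paired analysis was possible because each age has 1 library.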
